A study of Rattus norvegicus with 12 samples.

Results

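Messenger RNA of the kelch family was followed across 3 groups of rat hearts. The members were chosen by symbol: every gene named Klhl or Kbtbd with a number, together with Enc1. They numbered 44 of the 30560 genes listed, and 41 of the 18182 genes with at least 10 counts in total. Kbtbd6, Klhl14 and Klhl1 were below that minimum, with 8, 2 and 0 counts over all rats. The family was also selected on measured values, since Klhl33 was lower after infarction and Enc1 was lower with treatment when 1 rat was left out. The values of these 2 genes are therefore given as a description, and no p-value is printed for them. They stand in the counts of members past a threshold, where their passing follows from the choice, and nothing is read from those counts.

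The rats were male Wistar rats operated on at 7 weeks of age. In the MI groups the left anterior descending coronary artery was ligated permanently, which kills part of the left ventricular wall, whereas Sham rats had the chest opened without a ligature. MI + UA rats (rats 29, 58, 64 and 66) received urolithin A (UA), a gut microbial metabolite known to induce mitophagy, by daily gavage for 8 weeks. MI rats (36, 57, 61 and 89) and Sham rats (12_1, 17, 32 and 38) received the carboxymethylcellulose vehicle. Rats whose first echocardiogram showed a small infarct were left out by the study. Infarcted rats were randomized to UA or vehicle with their ejection fraction taken into account, and the sources differ on the dose and on whether treatment began 24 hours or 1 week after surgery. RNA came from fixed and embedded sections of the middle left ventricle, 1 library per rat, so each value mixes surviving muscle, scar and vessels. Rat 66 is labelled MI + UA but stands among the vehicle-treated MI rats in a supplementary table, and it was kept as labelled.

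Kelch proteins of this family carry a BTB domain that binds the scaffold protein cullin 3 (CUL3) and a propeller of kelch repeats that holds a substrate. They act as the exchangeable adaptors of CUL3 ubiquitin ligases, which mark proteins for degradation or change their function. Several members, among them Klhl31, Klhl40 and Klhl41, are known for their abundance in striated muscle, where they help to maintain the sarcomere, and inherited loss of KLHL40 or KLHL41 causes nemaline myopathy.

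The promoters of 3 members are shown because their genes represent the patterns described here: Klhl33 with the largest fall among members with an average log2 CPM (counts scaled per library) of at least 1, Klhl24 with the smallest standard error among the members that fell, and Klhl29 with the largest rise. Each is the 250 bases before the annotated start, 5′ to 3′ on the gene's strand, from RefSeq on build GRCr8 and not from the deposited data. Capitals mark matches to the E-box, CANNTG, which many basic helix-loop-helix factors bind. The Klhl33 window is chr15:26589767-26590016, the Klhl24 window is chr11:94382051-94382300 and the Klhl29 window is chr6:34110056-34110305, all on the minus strand.
Klhl33: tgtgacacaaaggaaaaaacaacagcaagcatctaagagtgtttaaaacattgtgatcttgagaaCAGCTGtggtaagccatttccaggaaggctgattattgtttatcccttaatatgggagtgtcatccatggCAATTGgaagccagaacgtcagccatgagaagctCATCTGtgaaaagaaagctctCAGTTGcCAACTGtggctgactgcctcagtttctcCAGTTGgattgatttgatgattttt
Klhl24: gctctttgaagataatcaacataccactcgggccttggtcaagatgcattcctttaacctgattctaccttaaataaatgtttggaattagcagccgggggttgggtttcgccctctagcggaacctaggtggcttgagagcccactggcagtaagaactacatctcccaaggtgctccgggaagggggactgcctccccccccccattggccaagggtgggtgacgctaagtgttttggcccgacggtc
Klhl29: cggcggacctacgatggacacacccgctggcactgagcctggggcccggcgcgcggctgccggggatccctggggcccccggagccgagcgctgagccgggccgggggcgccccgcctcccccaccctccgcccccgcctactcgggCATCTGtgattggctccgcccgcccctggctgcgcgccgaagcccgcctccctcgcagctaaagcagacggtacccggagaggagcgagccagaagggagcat

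The Klhl33 window held 6 E-box matches, a number reached by 0.26% of the 33465 RefSeq promoters of this length. These began 185, 115, 81, 60, 53 and 25 bases before the start. No match was present in the Klhl24 window and 1 in the Klhl29 window, 103 bases before its start. At least 1 E-box was found in 25 of the 37 members with a promoter entry and in 65.5% of all promoters, so the motif itself was about as frequent in the family as elsewhere. Among members with an entry, it was found in 3 of the 7 that were lower in MI and in 19 of the 27 that did not pass. This difference was not tested. The number of matches was examined after the expression values were known. Base composition also differed between the 3 genes, with 41.6% G and C and 1 CpG in the Klhl33 window against 76% and 29 CpGs in the Klhl29 window. Enc1, Kbtbd11, Kbtbd12, Kbtbd7, Klhl1, Klhl32 and Klhl38 had no entry.

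Another 9 motifs were searched on both strands of the same windows. The TEAD factor motif CATTCC was found in 3 of the 37 members and 12.1% of all promoters. The motif AGATAA, bound by zinc finger factors of the heart, was found in 6 members and 10.3% of promoters. The NF-Y motif CCAAT was found in 9 members and 34.0% of promoters, and the TBP motif TATAAA in 2 members and 12.9% of promoters. The FOXO motif TGTTTAC was found in 1 member and 3.22% of promoters, and the AP-1 motif TGANTCA in 3 members and 6.34%. The antioxidant response element TGACNNNGC was found in 6 members and 10.1% of promoters. The CArG box was found in 0 members and 1.5% of promoters, and the MEF2 motif in 2 members and 2.96%. In the Klhl33 promoter 1 E-box overlapped its CCAAT match. A match is a stretch of letters and was not tested as a binding site.

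Reads on genes numbered between 6228706 and 19031695 per rat, and mitochondrially encoded genes took 50.2% to 58.6% of them. Of all reads the counter handled, those placed on a gene made up 46.9% to 48.3% in Sham, 43.3% to 44.8% in MI and 42.9% to 47.2% in MI + UA. All 17 cardiomyocyte markers with a row were detected in every group, and 14 of them were lower in MI than in Sham (edgeR adjusted p under 0.05), with a median log2 fold change of -0.43. Levels are given as CPM, the counts of a gene scaled to a common library size. The summed level of these markers was 58949 to 66564 CPM in Sham, 41765 to 48810 in MI and 43665 to 56129 in MI + UA. In contrast, 10 of 12 fibroblast markers and 8 of 10 macrophage markers were higher in MI. In these bulk sections, fewer cells of a type and less RNA per cell cannot be told apart.

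In MI versus Sham, which addresses the effect of the infarct, 11 of the 41 members passed the adjusted p threshold of 0.05. Enc1 and Klhl29 were higher, or 4.88% of the members, where 5.82% of all genes tested were higher. Kbtbd12, Kbtbd4, Klhl21, Klhl23, Klhl24, Klhl30, Klhl31, Klhl33 and Klhl38 were lower, or 22.0% of the members, where 5.53% of all genes were lower. MI rats lay entirely above Sham rats for 2 members and entirely below them for 8, against 8.12% and 7.56% of all genes. The contrast was used in choosing the family, so nothing is read from these shares. The median log2 fold change of the members was -0.06, and that of all genes tested was 0.03. A further 30 members did not pass, with log2 fold changes from -2.09 for Klhl10 to 1.58 for Klhl35, both of which rested on few reads (37 and 21 counts over all rats).

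**Figure D1:**
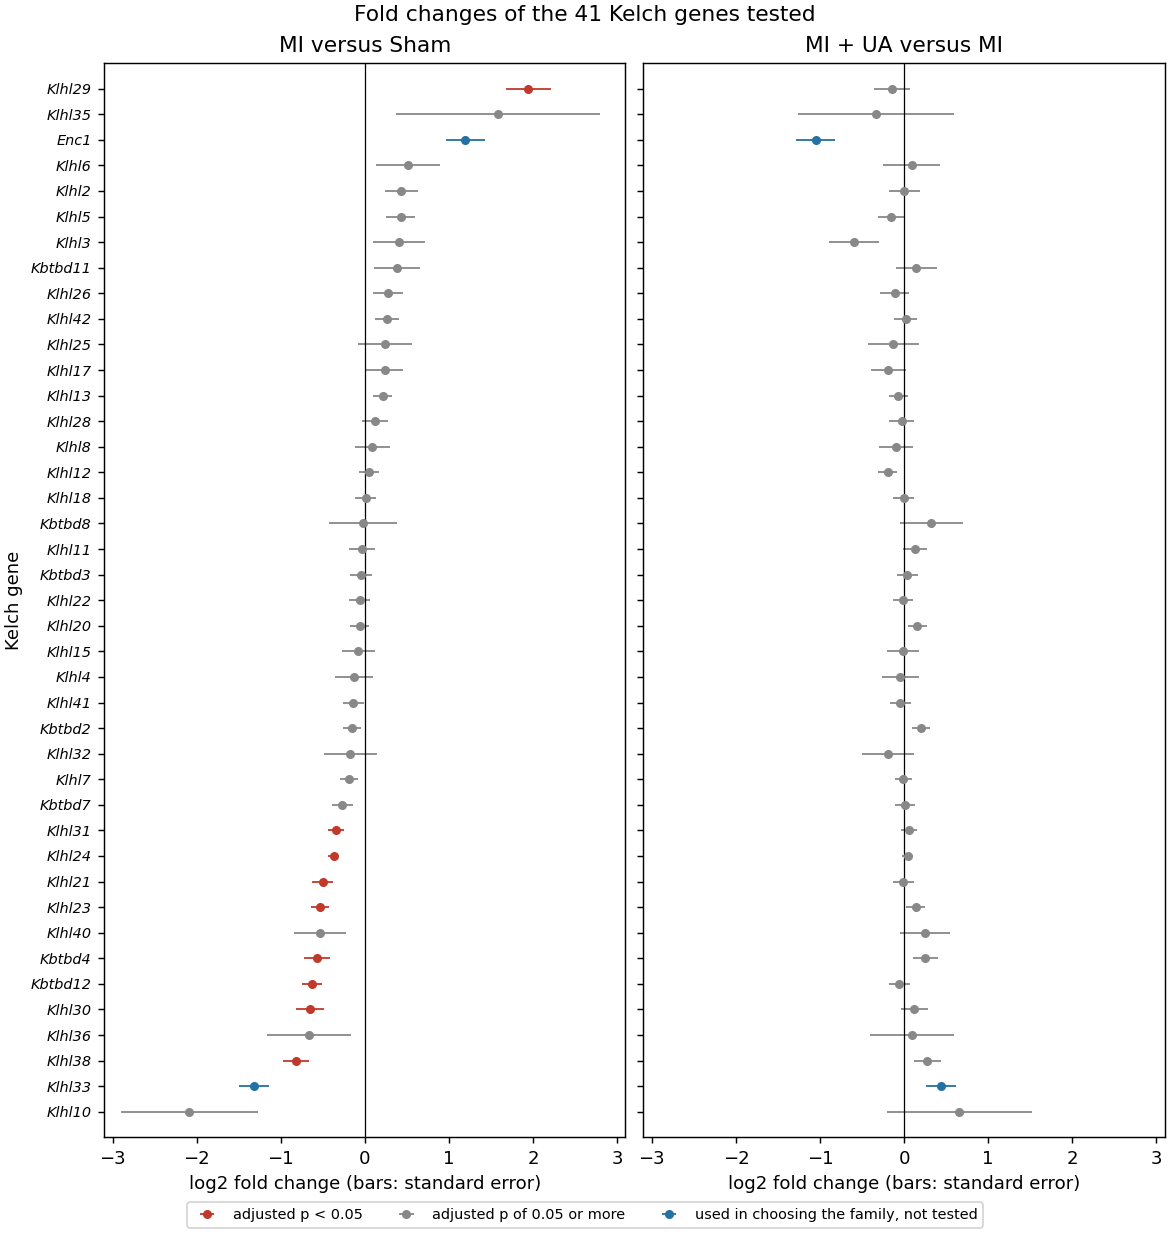
Log2 fold change of each of the 41 kelch genes tested in MI versus Sham (left) and MI + UA versus MI (right), with bars for the standard error of the fit over 12 rats. Red marks an adjusted p under 0.05, grey an adjusted p of 0.05 or more, and blue the 2 genes used in choosing the family. Klhl29 and 8 lower genes are red on the left, and no gene is red on the right.

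Klhl33, a muscle-enriched member whose substrate is not well known, was present at 67.0, 38.7, 35.7 and 41.3 CPM in Sham rats 12_1, 17, 32 and 38. In MI rats 36, 57, 61 and 89 its level was 18.9, 17.7, 15.2 and 21.1 CPM. In MI + UA rats 29, 58, 64 and 66 it was 19.5, 22.1, 25.3 and 32.2 CPM. All infarcted rats were thus below the lowest Sham rat, and the treated rats partly overlapped the untreated ones. The group means were 45.7 ± 14.4 in Sham, 18.2 ± 2.48 in MI and 24.8 ± 5.49 in MI + UA (CPM ± SD, n = 4). In MI versus Sham this gave a log2 fold change of -1.32, with a standard error (SE) of 0.18, which lay between -1.42 and -1.08 when each rat was left out in turn. The smallest of these falls was obtained without Sham rat 12_1, which had the highest level of Klhl33.

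Among the other muscle-enriched members, Klhl38 was the next most reduced. Its level was 26.3, 17.5, 19.7 and 22.2 CPM in the Sham rats, 12.7, 8.78, 10.7 and 15.6 CPM in the MI rats, and 13.1, 13.2, 16.8 and 16.0 CPM in the MI + UA rats. No infarcted rat reached the lowest Sham value. From Sham to MI the log2 fold change was -0.82 (SE 0.16, edgeR adjusted p = 0.00172).

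Klhl30 was lower as well, at 7.40, 7.22, 8.59 and 7.03 CPM in Sham, 5.04, 4.08, 5.19 and 4.64 CPM in MI, and 4.86, 4.37, 5.95 and 5.63 CPM in MI + UA. Sham and MI rats did not overlap, and the gene changed by -0.66 in log2 units (SE 0.17, edgeR adjusted p = 0.0126). Kbtbd12 was at 37.6, 26.6, 32.8 and 31.1 CPM in Sham, 19, 24.0, 21.3 and 19.4 CPM in MI, and 21.1, 18.1, 17.1 and 22.8 CPM in MI + UA. Here too every infarcted rat was below every Sham rat, and the gene changed by -0.63 in log2 units between Sham and MI (SE 0.12, edgeR adjusted p = 0.00173).

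Klhl31, a sarcomere-associated adaptor, took the most reads of the family. It was at 428, 528, 496 and 489 CPM in Sham, 377, 456, 335 and 365 CPM in MI, and 370, 386, 408 and 430 CPM in MI + UA. MI rat 57 exceeded Sham rat 12_1, so the groups overlapped, although the change of -0.34 in log2 units passed (SE 0.09, edgeR adjusted p = 0.0207). This call was lost without Sham rat 17, 32 or 38 or MI rat 61 or 89, with edgeR adjusted p between 0.0544 and 0.0870.

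The 2 members best known from nemaline myopathy did not pass. Klhl41 was at 24.2 to 29.9 CPM in Sham, 20.6 to 30.1 in MI and 20.2 to 27.3 in MI + UA, and its MI versus Sham change was -0.14 in log2 units (SE 0.13, edgeR adjusted p = 0.566). Klhl40 was counted with few reads, at 1.68 to 4.04 CPM in Sham, 1.47 to 3.29 in MI and 1.8 to 3.52 in MI + UA, and its change was -0.54 (SE 0.31, edgeR adjusted p = 0.319). The change of Klhl40 ranged from -0.86 to -0.37 when each rat was left out. Of the 7 striated muscle members tested, 5 were lower in MI, where 5.53% of all genes were lower, and the median log2 fold change was -0.63. These 5 include Klhl33, which was chosen for its fall, and Klhl31, whose call was lost in 5 of 8 leave-one-out fits, so nothing is read from the count. The summed level of 7 skeletal muscle markers, which could mark other striated muscle in a section, was 12.1 to 15.3 CPM in Sham and 15.7 to 27.9 CPM in MI. Of the 6 tested, 1 was higher in MI, where 5.82% of all genes were higher. It was Tnnt3 (log2 fold change 0.75, edgeR adjusted p = 0.00812), which had the highest average log2 CPM of them (3.56). Klhl34 and Kbtbd13 of the kelch list were not analysed here.

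**Figure D2:**
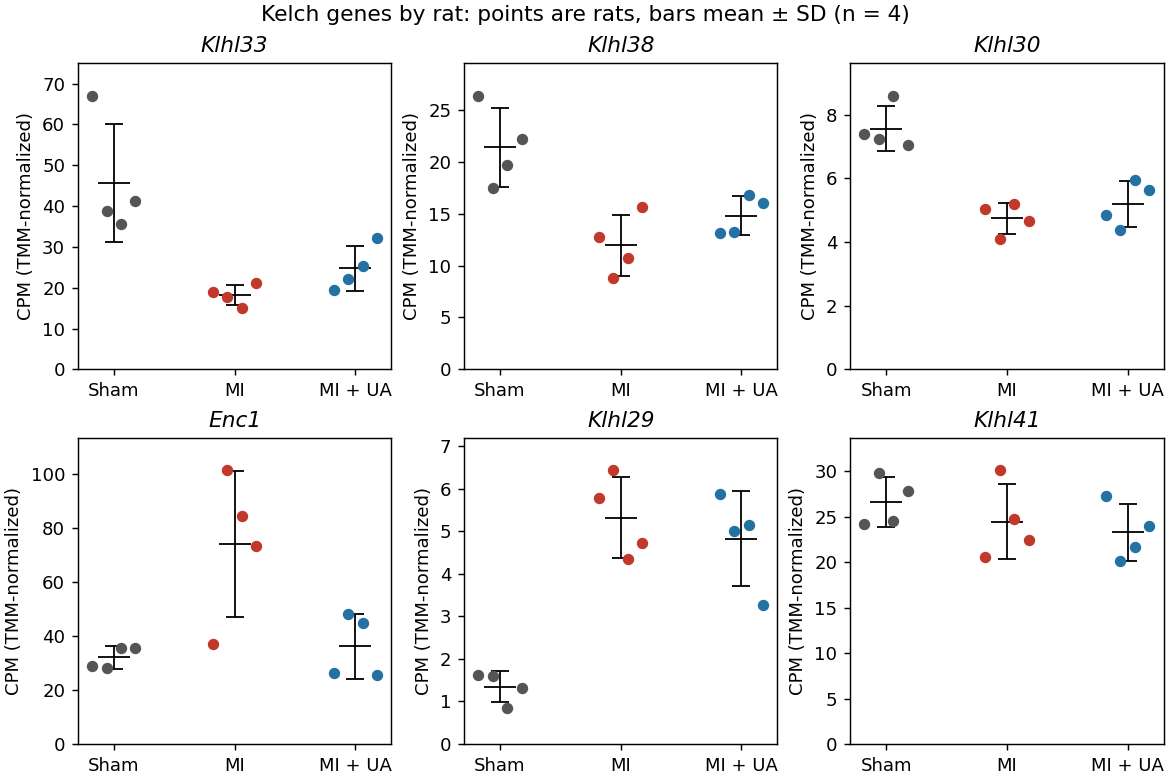
TMM-normalized CPM of 6 kelch genes in each rat, by group. Points are rats and bars are mean ± SD (n = 4), on axes that start at 0. Klhl33, Klhl38 and Klhl30 are lower in all MI rats than in any Sham rat, Klhl29 is higher in all infarcted rats, Enc1 is high in MI rats 57, 61 and 89, and Klhl41 overlaps in all groups.

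Members with wider expression were lower too. Klhl24, which is known for the control of intermediate filaments and is mutated in inherited skin fragility with cardiomyopathy, was at 280, 300, 294 and 292 CPM in Sham. It was at 223, 236, 223 and 219 CPM in MI and at 225, 230, 233 and 239 CPM in MI + UA. The spread within each group was small, with a coefficient of variation between 2.54% and 3.31%, and every infarcted rat was below every Sham rat. Between Sham and MI, Klhl24 changed by -0.37 in log2 units (SE 0.07, edgeR adjusted p = 0.00111).

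Klhl21, an adaptor known for its role at the mitotic spindle midzone, was at 25.8 to 36.4 CPM in Sham and 20.1 to 24.4 CPM in MI, without overlap (log2 fold change -0.50, SE 0.12, edgeR adjusted p = 0.0101). Klhl23 was at 30.2 to 40.4 CPM in Sham and 19.4 to 25.7 CPM in MI, also without overlap (log2 fold change -0.53, SE 0.11, edgeR adjusted p = 0.00288). Both genes kept an adjusted p under 0.05 when any 1 rat was left out.

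Kbtbd4, an adaptor for the CoREST corepressor, was at 15.8, 13.0, 14.5 and 11.7 CPM in Sham and 8.48, 11.4, 8.51 and 9.04 CPM in MI. The groups were separated only narrowly, by MI rat 57 and Sham rat 38. Its log2 fold change was -0.57 (SE 0.15, edgeR adjusted p = 0.0170), but the call was lost without Sham rat 12_1 or 32 or MI rat 36 or 61, with edgeR adjusted p between 0.0503 and 0.0641, and with rat 66 counted in MI (0.0709). Kbtbd4 overlaps Ndufs3, a complex I subunit gene that was itself lower in MI (log2 fold change -0.54, SE 0.10, edgeR adjusted p = 0.000767). The strand setting of the read count is not given in the sources used here, so reads of the 2 genes cannot be told apart.

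Klhl29, whose function is little known, rose the most among the tested members with an adjusted p under 0.05. It was at 1.63, 1.59, 0.842 and 1.31 CPM in Sham, which corresponds to only 5 to 13 reads per rat. It was at 5.78, 6.43, 4.36 and 4.73 CPM in MI and at 5.89, 5.01, 5.14 and 3.26 CPM in MI + UA. Every infarcted rat exceeded every Sham rat. Klhl29 had a MI versus Sham log2 fold change of 1.95 (SE 0.27, edgeR adjusted p = 7.73e-05), and this value lay between 1.8 and 2.05 when each rat was left out. Klhl29 overlaps 3 uncharacterized loci in GRCr8.

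Enc1, an actin-associated kelch protein known from neural tissue, was at 28.9, 28.1, 35.7 and 35.8 CPM in Sham. In MI it was at 37.2, 101, 84.6 and 73.4 CPM, and in MI + UA at 26.2, 48.3, 44.8 and 25.7 CPM. All MI rats exceeded the Sham rats, but rat 36 did so only slightly. Rats 57, 61 and 89 were also above every treated rat, whereas rat 36 lay inside the treated range. The means were 32.1 ± 4.18 in Sham, 74.2 ± 27.2 in MI and 36.2 ± 12 in MI + UA (CPM ± SD, n = 4), so the coefficient of variation was 13.0% in Sham and 36.7% in MI. From Sham to MI, Enc1 changed by 1.20 in log2 units (SE 0.24).

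**Figure D3:**
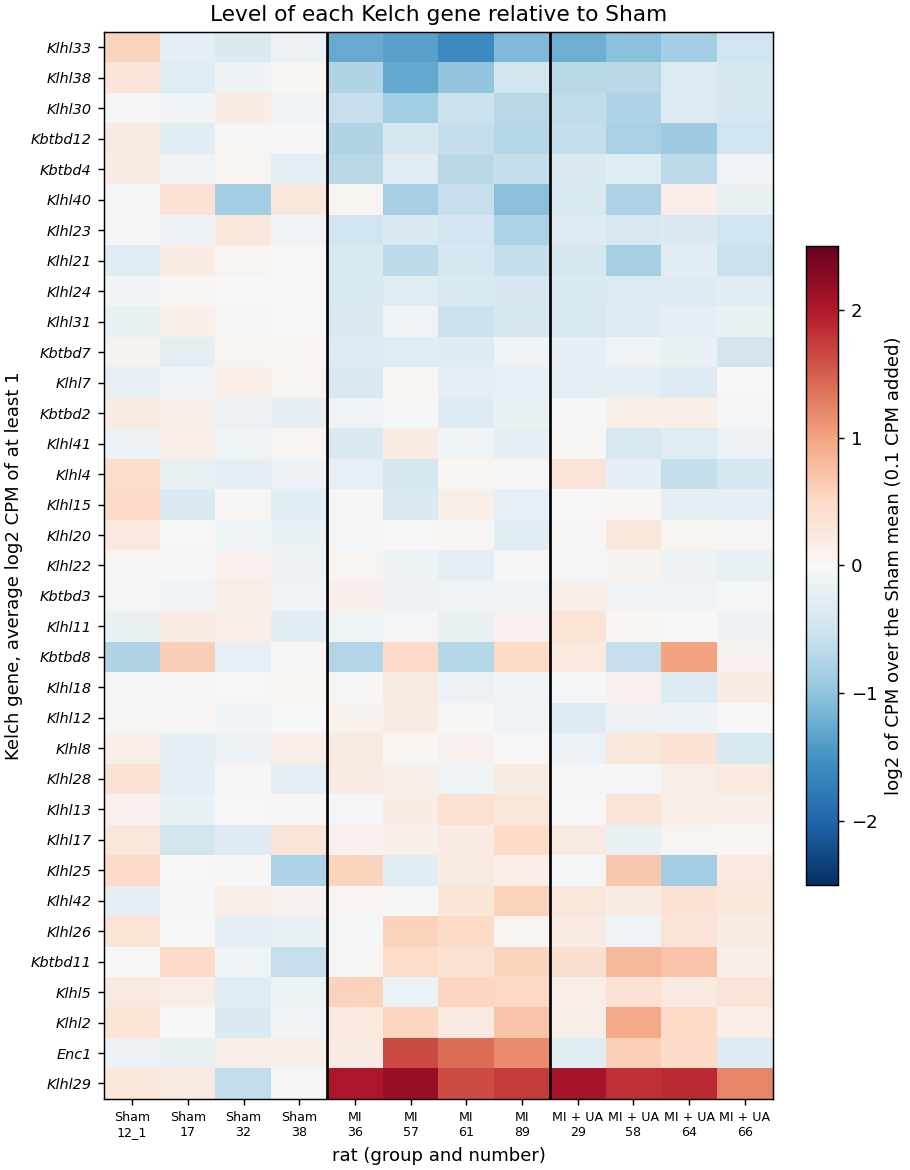
Level of the 35 kelch genes with an average log2 CPM of at least 1 in each rat, as the log2 ratio of CPM to the Sham mean after adding 0.1 CPM. Columns are rats by group and rows are ordered by the MI versus Sham fold change. The upper rows are blue in MI and MI + UA, Klhl29 is red in all infarcted rats, and Enc1 is red mainly in MI rats 57, 61 and 89.

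The lower members were next set against the cardiomyocyte markers, which fell in the same rats, a comparison chosen after the values had been seen. Reads of Klhl33 per 100000 reads of the 17 markers were 108, 65.6, 55.6 and 62.0 in the Sham rats, 40.9, 36.3, 36.3 and 48.5 in the MI rats, and 40.6, 50.6, 58 and 57.3 in the MI + UA rats. Klhl33 therefore stayed lower in every MI rat than in any Sham rat on this scale too. It was the only member of the 41 to do so, where 0.33% of all genes tested did. Klhl33 was chosen for its fall in this same contrast, so these values are a description and nothing is read from that share. The scale sums raw reads, so the markers with the most reads weigh the most. Ttn had the highest average log2 CPM of the 17, at 14.8, and its MI versus Sham log2 fold change was -0.45. The markers differed, with 16 of the 17 below 0 and 1 above, from -1.08 for Myh6 to 0.06 for Csrp3. The other 8 members called lower overlapped between MI and Sham on this scale, with Klhl38 at 29.6 to 42.5 in Sham and 18 to 35.9 in MI, and Klhl24 at 438 to 508 in Sham and 481 to 534 in MI. In the opposite direction, 17 members were higher in every MI rat than in any Sham rat relative to these markers, or 41.5%, against 36.8% of all genes. The part of the change in cardiomyocyte RNA in the fall of each member was not tested beyond these ratios.

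**Figure D4:**
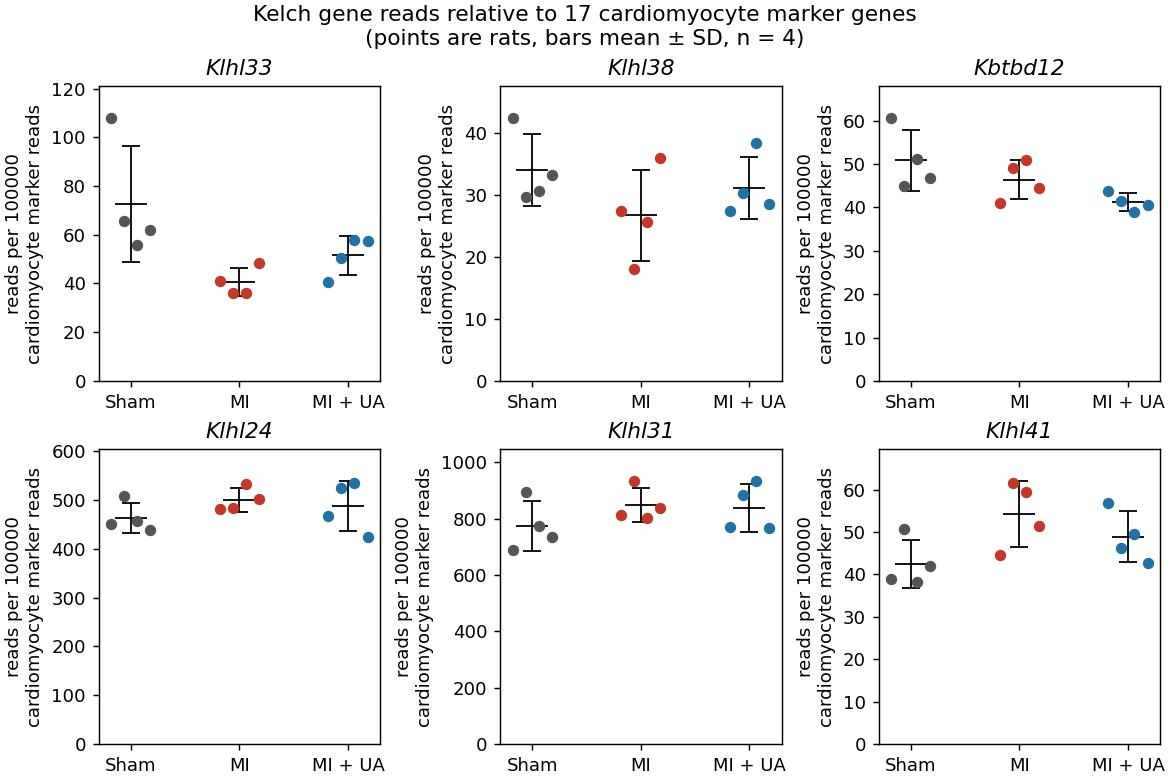
Reads of 6 kelch genes per 100000 reads of 17 cardiomyocyte marker genes in each rat, by group. Points are rats and bars are mean ± SD (n = 4), on axes that start at 0. The MI rats lie below all Sham rats for Klhl33, at 36.3 to 48.5 against 55.6 to 108, and overlap the Sham rats for the other 5 genes.

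The higher members were set against markers of the non-muscle cells in the same way. Klhl29 per 100000 fibroblast marker reads was 59.9 to 130 in Sham, 120 to 263 in MI and 127 to 192 in MI + UA, and the MI and Sham ranges overlapped, as they did relative to the macrophage markers. Relative to the 8 neuron and Schwann cell markers, whose summed level was 48.8 to 62.5 CPM in Sham and 89.1 to 116 CPM in MI, Klhl29 was at 1471 to 3254 per 100000 reads in Sham and 4312 to 6177 in MI, without overlap, and at 2620 to 5479 in MI + UA, which overlapped both. Enc1 overlapped between MI and Sham relative to all 3 marker lists. Between the infarcted groups, Enc1 was at 1210 to 4152 per 100000 fibroblast marker reads in MI and 854 to 1229 in MI + UA, which overlapped slightly. It was at 14452 to 35746 in MI and 8919 to 12164 in MI + UA per 100000 macrophage marker reads, and at 39797 to 87314 and 20641 to 37571 per 100000 neuron and Schwann cell marker reads, both without overlap. These are values of a gene selected on this contrast and were not tested.

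In MI + UA versus MI, which addresses UA treatment, 0 of the 41 members passed the adjusted p threshold in edgeR's test, as did 0 of all genes, and DESeq2 also gave 0. At an unadjusted p under 0.05 there were 2 members, Enc1 and Klhl33, or 4.88%, against 3.79% of all genes. Enc1 was chosen on this contrast and Klhl33 on the contrast with Sham, which shares the MI rats, so nothing is read from this share. The treated rats were entirely above the MI rats for 0 members and entirely below them for 1, against 1.18% and 1.16% of all genes. The median log2 fold change of the members was -0.0027, and that of all genes was 0.0047.

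In MI + UA versus MI the log2 fold change of Enc1 was -1.05 (SE 0.23). It was -1.28 without MI rat 36, the fit whose value was used in choosing the family, and -0.87 without MI rat 57. With rat 66 counted in MI it was -0.70. That of Klhl33 was 0.44 (SE 0.18), was 0.27 without MI + UA rat 66 and was 0.05 with rat 66 counted in MI. Rat 66 had the highest Klhl33 and the lowest Enc1 of the treated rats, and its group moved the Klhl33 value more than any other choice tried.

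Klhl3, an adaptor that targets WNK kinases, was the member whose treated rats lay below all MI rats, and it was singled out after its values were seen. It was at 1.75, 1.88, 2.08 and 1.63 CPM in MI and 1.43, 1.03, 1.08 and 1.18 CPM in MI + UA, or 8 to 25 reads per rat across both groups. The Sham rats, at 0.954 to 2.02 CPM, spanned the whole treated range and most of the MI range. Its log2 fold change of -0.59 (SE 0.30) did not pass the adjusted threshold under any setting tried.

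None of the other members that fell in MI passed with treatment. In MI + UA versus MI the log2 fold changes were 0.28 for Klhl38 (SE 0.16), 0.25 for Kbtbd4 (0.15), 0.14 for Klhl23 (0.11), 0.12 for Klhl30 (0.17), -0.0079 for Klhl21 (0.12), 0.06 for Klhl31 (0.09), 0.04 for Klhl24 (0.07) and -0.05 for Kbtbd12 (0.12). That of Klhl29 was -0.14 (0.22). All these values were within 2 SE of 0. When each rat was left out, the value was 0.18 to 0.43 for Klhl38, 0.14 to 0.35 for Kbtbd4 and 0.06 to 0.18 for Klhl23. It was 0.07 to 0.18 for Klhl30 and 0.03 to 0.07 for Klhl24. Klhl7 and Kbtbd2, which completed the 5 members with the most reads, were at 53.0 to 71.5 and 31.1 to 37.9 CPM in MI and at 54.8 to 68.4 and 37.9 to 43.0 CPM in MI + UA. Neither passed in any comparison.

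Compared with Sham, which shares its rats with the first comparison, the MI + UA rats had 1 member higher, Klhl29, and 7 lower, Kbtbd12, Klhl21, Klhl23, Klhl24, Klhl30, Klhl33 and Klhl38, where 5.16% of all genes were higher and 4.27% lower. The log2 fold changes were 1.8 for Klhl29 (edgeR adjusted p = 0.000226), -0.68 for Kbtbd12 (0.00107), -0.33 for Klhl24 (0.00355), -0.51 for Klhl21 (0.0105), -0.39 for Klhl23 (0.0252), -0.54 for Klhl38 (0.0307) and -0.53 for Klhl30 (0.0442). Klhl33 was at -0.88 and Enc1 at 0.15. The call of Klhl23 was lost without Sham rat 32 or MI + UA rat 58 or 66, with edgeR adjusted p from 0.0516 to 0.112, and that of Klhl38 without Sham rat 12_1 or 38 or MI + UA rat 29 or 58, from 0.0805 to 0.122. That of Klhl30 was lost without any of the 4 Sham rats and without MI + UA rat 29 or 58, from 0.0694 to 0.125, and also in the fit of the compared groups alone (0.0521) and with no filter on low counts (0.0713). With rat 66 counted in MI, Klhl23 was lost (edgeR adjusted p = 0.0585). Klhl31, which did not pass here (log2 fold change -0.28, edgeR adjusted p = 0.0622), passed in 7 alternatives, with adjusted p from 0.0290 to 0.0487.

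The partners of these adaptors were counted in the same MI versus Sham fit, in which 5.82% of all genes were higher and 5.53% lower. Of 24 tested genes for the CUL3 ligase core and its activation by the ubiquitin-like protein NEDD8, 2 were lower and 0 higher. These were Ube2m, a NEDD8-conjugating enzyme (log2 fold change -0.31, edgeR adjusted p = 0.0108), and Uba3, the catalytic subunit of the NEDD8-activating enzyme (-0.34, 0.0337). For Cul3 itself the value was -0.10 (SE 0.09, edgeR adjusted p = 0.528), and the median of the list was -0.19. Of 20 CUL3 adaptors without a Klhl or Kbtbd name, 1 was higher, Kctd17 (0.69, edgeR adjusted p = 0.00524), and Keap1, the adaptor for the antioxidant factor NRF2, was at -0.18 (0.504).

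Of 29 reported targets and partners of kelch adaptors, 1 was higher and 2 were lower in MI. Tiam1, a Rac1 exchange factor targeted by KBTBD6 and KBTBD7, was higher (log2 fold change 1.56, edgeR adjusted p = 0.000881). Ulk1, an autophagy kinase targeted by KLHL20, was lower (-0.34, 0.00574), as was Des, the muscle intermediate filament desmin and a cardiomyocyte product (-0.30, 0.0189). In MI + UA versus MI, 0 genes of these lists passed. Leaving out Sham rat 12_1 raised the 6 genes called over the 3 lists in MI versus Sham to 10. In that fit 1751 of 18053 genes passed, against 2064 of 18182 in the main fit. Leaving out MI rat 61 or 89 lowered the 6 to 4.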

How the data were processed

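RNA-seq libraries of 12 rat hearts were analysed, 4 in each of Sham, MI and MI + UA, grouped by the sample labels, with 1 rat per library. The authors depleted ribosomal RNA, prepared strand-specific libraries, mapped read pairs to mRatBN7.2 with its Ensembl annotation with STAR 2.6.1c and counted reads per gene with htseq-count. The deposited values are raw counts, and the 5 summary lines of the counter were left out. A further MI + UA library was excluded by the authors and was not analysed here. RNA from fixed tissue is fragmented, and its quality was not given in the sources used here.

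Genes that reached 10 counts over all rats entered edgeR 4.0.16 (R 4.3.3), using TMM normalization, the quasi-likelihood test, 1 fit over the 3 groups and Benjamini-Hochberg adjustment over all 18182 genes at a threshold of 0.05. Standard errors were the absolute log2 fold change divided by the square root of F. CPM are TMM-normalized and not corrected for length, so they are not compared between genes as levels. The fitting script was tested on simulated data. Precision is limited by 4 rats per group. Alternatives were DESeq2 1.42.0, other filters, other normalizations, fits of the compared groups alone, rat 66 counted in MI, and leaving out each rat.

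The members, gene lists and tests were chosen with earlier results of these data known. Genes were named when a member passed a threshold in any comparison or an unadjusted p of 0.05 in MI + UA versus MI, when its rats did not overlap at an average log2 CPM of at least 1, when it was on the striated muscle list, or when it was among the 5 with the highest CPM. Genes of the other lists were named when they passed, with Cul3 and Keap1 added for context. Klhl3, Klhl5, Klhl10, Klhl35 and Ndufs3 fall outside this rule and were named after their values were seen. No gene row of the name Ivns1abp was analysed here. Promoters matched 37 of 44 members by symbol. Members that overlap another gene in GRCr8 may share its reads.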

Additional observations from a re-analysis of the deposited data

Results flagged for a closer look

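Dixon's ratio was computed in 57 groups of 4 rats, and 3 exceeded the critical value for groups of that size, where chance gives 2.9. The summed CPM of the kelch genes was highest in MI rat 57, at 1247 against 1092 in the next rat (ratio 0.836). The share of counted reads on genes was lowest in MI rat 61, at 43.3% against 44.6% (ratio 0.853), and in MI + UA rat 58, at 42.9% against 46.7% (ratio 0.886).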

How the results depend on the processing

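The number of members passing in MI versus Sham was 11 in 6 alternatives and 10 with rat 66 counted in MI. It was 9 to 12 when each rat was left out. Klhl5 was gained without MI rat 57 and Klhl10 without MI rat 61. Of all genes, 2064 of 18182 passed in the main fit, and from 2070 of 18182 to 2216 of 22587 in those 6 alternatives. The number was 1913 of 18182 with rat 66 counted in MI, and from 1468 of 18028 to 1941 of 18081 when each rat was left out. In MI + UA versus MI the number of members passing was 0, but 1 with no filter on low counts. It was 0 to 1 when each rat was left out, the 1 being without MI rat 36. The member was Enc1 in both, which was selected on this contrast, so these counts are a description. Of all genes, 3 of 22587 passed with no filter on low counts and 1 of 17938 without MI rat 36. In MI + UA versus Sham the number of members passing was 8, with 9 in DESeq2 and with TMM without mitochondrially encoded genes. It was 8 in the other alternatives that kept every rat, and 5 to 8 when each rat was left out, with 5 without MI + UA rat 58. Of all genes, 1716 of 18182 passed in the main fit of this comparison and 1921 of 14653 in DESeq2. When each rat was left out, they ranged from 1155 of 18076 to 1895 of 17899, with 1255 of 18035 without MI + UA rat 58. The genes called over the 3 CUL3 lists numbered 6, and 4 to 10 when each rat was left out. The median log2 fold change of the members ranged from -0.10 to -0.03 in MI versus Sham and from -0.0019 to 0.04 in MI + UA versus MI when each rat was left out. With rat 66 counted in MI, the MI + UA versus MI log2 fold change changed sign for Klhl29 (0.16), Klhl21 (0.021) and Klhl31 (-0.017), all small and not passing. Leaving out rats gave both signs in this comparison for Klhl29 (-0.28 to 0.030), Kbtbd12 (-0.13 to 0.010), Klhl21 (-0.084 to 0.076), Klhl31 (-0.0019 to 0.15), Klhl41 (-0.14 to 0.061) and Klhl7 (-0.083 to 0.075). The cause was not tested. No paired analysis was possible because the groups consist of different animals and share no replicate number. Klhl29, Klhl3 and Klhl40 rest on few reads per rat, which limits how finely their levels can be told apart.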
